A study of Mus musculus with 7 samples.

Results

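Poly I:C is a synthetic double-stranded RNA that cells read as a sign of viral infection. The comparison described here sets 1 array of splenic monocytes from mouse 1, stimulated with Poly I:C at 1 µg/ml for 3 h, against the 2 arrays of unstimulated splenic monocytes, 1 from mouse 1 and 1 from mouse 2. The arrays were chosen by their titles and are 3 of the 7 in the study. The other 4 held monocytes stimulated for 3 h with HL7G at 400 ng/ml (1 array from each mouse), R848 at 2 µg/ml (mouse 1) or CpG B at 2.5 µM (mouse 1). R848 is a small agonist of TLR7, CpG B is an oligonucleotide agonist of TLR9, and HL7G is a monoclonal antiphospholipid antibody. All cells were selected monocytes wild type for Procr, the gene of the protein C receptor EPCR. How the monocytes were selected, the age, sex and strain of the mice, and the culture time of the unstimulated cells are not stated in these sources. Each value is a log2 level from an Affymetrix Mouse Gene 2.0 ST array, so a difference of 1 is a 2-fold difference, and every difference is Poly I:C minus unstimulated unless another pair is named. Where 2 unstimulated values are given, mouse 1 stands before mouse 2. Poly I:C had no replicate. In the test its array was assumed to vary like the pairs of unstimulated and HL7G arrays.

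Double-stranded RNA is sensed by TLR3 in endosomes, which signals through the adaptor TRIF (Ticam1), and by the helicases RIG-I (Ddx58) and MDA5 (Ifih1) in the cytosol, which signal through MAVS on mitochondria. Both routes activate the kinases TBK1 and IKKε, which phosphorylate IRF3 and IRF7, and both activate NF-kB. IRF3 and IRF7 drive type I interferon genes, and secreted interferon acts through its receptor and a complex of STAT and IRF factors on the interferon-stimulated response element (ISRE) in the promoters of antiviral effector genes.

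The 2 unstimulated arrays did not read alike, and this bears on every result. Over the 11119 genes that reached a level of 5 on at least 1 array, Pearson's r with the Poly I:C array was 0.658 for unstimulated mouse 1, 0.833 for unstimulated mouse 2, 0.9 for R848, 0.928 for CpG B, 0.831 for HL7G mouse 1 and 0.897 for HL7G mouse 2. The HL7G array of mouse 1 was thus no closer to Poly I:C than unstimulated mouse 2. The 2 unstimulated arrays had r = 0.849 with each other. These values are across genes of single arrays, and genes are not independent replicates. The SD of the differences was 0.657 against mouse 1 and 0.469 against mouse 2, with medians of 0.0113 and 0.0453. Actb, cytoplasmic actin, read 8.44 on the Poly I:C array and 5.02 and 6.81 on the unstimulated arrays. It was above both, and the gap to mouse 1 was the wider. Gapdh, a glycolytic enzyme, read 8.32 with Poly I:C, against 9.13 and 8.75 unstimulated, lower than both. These values are from the brightest of its 3 probe sets. The difference from the unstimulated mean was -0.63 for that probe set and -0.41 for the mean of all 3. Each difference is therefore given against both arrays. In bulk RNA, fewer cells of a type and less RNA per cell cannot be told apart.

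No gene passed the test. In limma's moderated test over 11119 genes with Benjamini-Hochberg adjustment, 0 genes (0.0%) had an adjusted p under 0.05, and the lowest adjusted p was 0.224. An unadjusted p under 0.05 was reached by 1054 genes (9.48%), of which 901 were higher and 153 lower with Poly I:C. With the mouse as a block, 2 genes passed, the small nucleolar RNA gene Snord1b at an adjusted p of 0.0357 and the Y RNA gene Rny1 at 0.0135 in limma, both higher with Poly I:C and both named after their values were seen. What follows is therefore a description of levels, by a fixed size: a gene counted as at least 2-fold from both if its difference was at least 1 against each unstimulated array. That held for 433 of 11119 genes upward (3.89%) and 6 downward (0.054%). Over all 22180 genes measured, with no condition on level, it held for 436 upward (1.97%) and 15 downward (0.0676%). The genes just inside the limit were Elp5, Hnrnpul2 and Tcp1, and those just outside were Pcgf5, Ddx1 and Kmt2a. Tcp1, a chaperonin subunit, read 8.29 with Poly I:C, against 3.92 and 7.29 in unstimulated cells, so that it passed by 1.00 against mouse 2 with 4.37 against mouse 1.

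**Figure D1:**
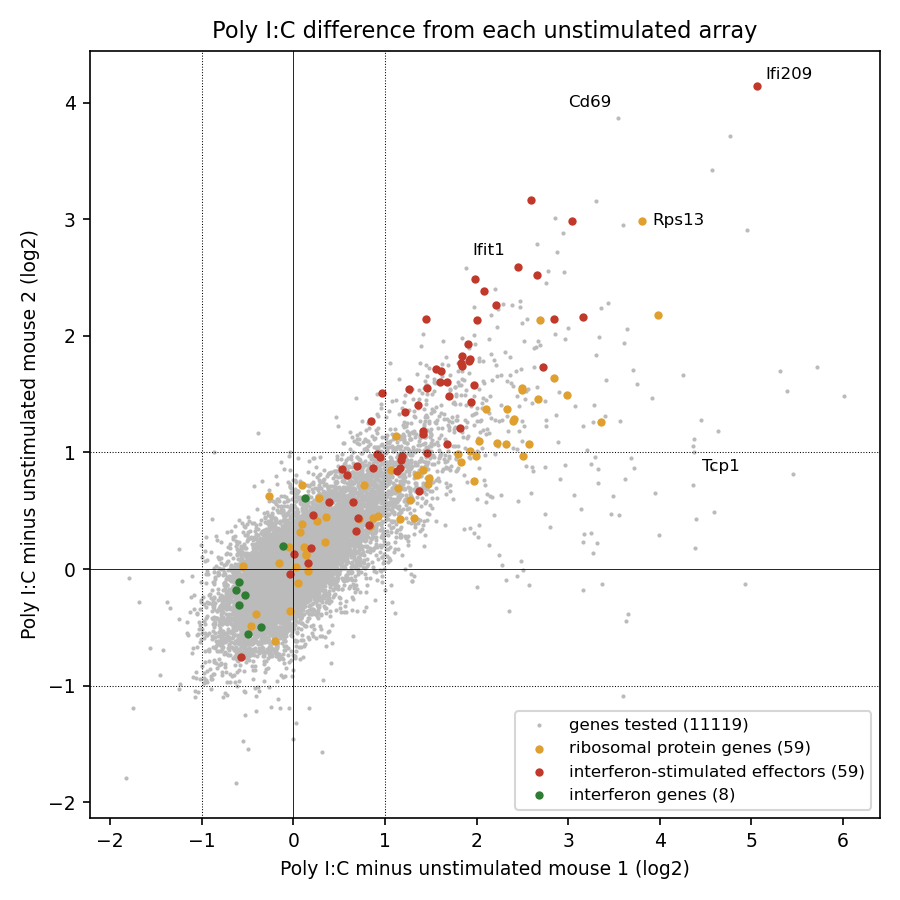
Each point is 1 of 11119 genes, with its log2 difference from unstimulated mouse 1 on the horizontal axis and from unstimulated mouse 2 on the vertical axis, and dotted lines at 2-fold. Interferon-stimulated effectors lie near the diagonal with 57 of 59 above 0 on both axes, ribosomal protein genes lean toward the mouse 1 axis, and 6 of the 8 interferon genes shown lie below 0 on both axes.

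Of the 15 genes furthest above both unstimulated arrays, 5 (Ifi209, Parp14, Usp18, Mndal and Ifit1) are in the list of interferon-stimulated effectors and 1 (Nfkbiz) is in that of NF-kB genes. Small RNA genes were not ranked, and among them Snord1b differed by 4.77 and 3.71 and Rny1 by 4.57 and 3.42 from mouse 1 and mouse 2. Ifi209, an interferon-inducible member of the PYHIN family, read 8.62 on the Poly I:C array and 3.55 and 4.47 on the unstimulated arrays. The difference was 4.61 ± 0.57 (SE), a 24.3-fold difference, and the adjusted p in limma was 0.33. Cd69, an early activation receptor of leukocytes, read 7.49 with Poly I:C, against 3.95 and 3.62 unstimulated, which is 13.1-fold. The unstimulated arrays lay within 0.33 of each other for Cd69, and the Poly I:C array stood 3.54 and 3.87 above them. Parp14, an ADP-ribosyltransferase, read 8.19 with Poly I:C, against 5.14 and 5.21 in unstimulated cells, and Gbp8, a guanylate-binding GTPase, read 7.90 on the Poly I:C array and 4.31 and 4.96 on the unstimulated arrays. Nfkbiz, which encodes the nuclear NF-kB cofactor IκBζ, read 7.41 with Poly I:C, against 4.46 and 4.53 unstimulated. All of these gaps exceed the distance between the 2 unstimulated arrays. That the Poly I:C value lies above both follows from how the genes were chosen.

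Usp18, the protease that removes ISG15 from proteins and restrains the interferon receptor, read 8.13 with Poly I:C, against 5.54 and 4.97 in unstimulated cells (7.35-fold). Helz2, a helicase and nuclear receptor cofactor, read 7.60 on the Poly I:C array and 4.94 and 4.81 on the unstimulated arrays. Rnf213, a very large ubiquitin ligase, read 8.0 with Poly I:C, against 5.12 and 5.28 unstimulated. These 3 lay between 2.72 and 2.88 above the mean of the unstimulated arrays. Nampt, the rate-limiting enzyme of NAD salvage, read 6.01 with Poly I:C, against 3.15 and 3.00 in unstimulated cells. Mndal, a second PYHIN gene, read 5.37 on the Poly I:C array and 2.72 and 2.85 on the unstimulated arrays, and Swap70, a regulator of actin and of B-cell migration, read 8.24 with Poly I:C, against 5.46 and 5.69 unstimulated. Tmem243, a transmembrane protein gene, read 7.40 with Poly I:C, against 4.64 and 4.94 in unstimulated cells. Rps13, a protein of the small ribosomal subunit, read 6.21 on the Poly I:C array and 2.40 and 3.22 on the unstimulated arrays and had the smallest error of the 15, 3.39 ± 0.37 (SE, adjusted p 0.224 in limma). Ifit1 and Cxcl10, described below with their groups, completed the 15. Their adjusted p values in limma ran from 0.224 to 0.454. After a loess normalization of the tested genes their differences ran from 1.58 to 3.66, so each kept its direction.

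**Figure D2:**
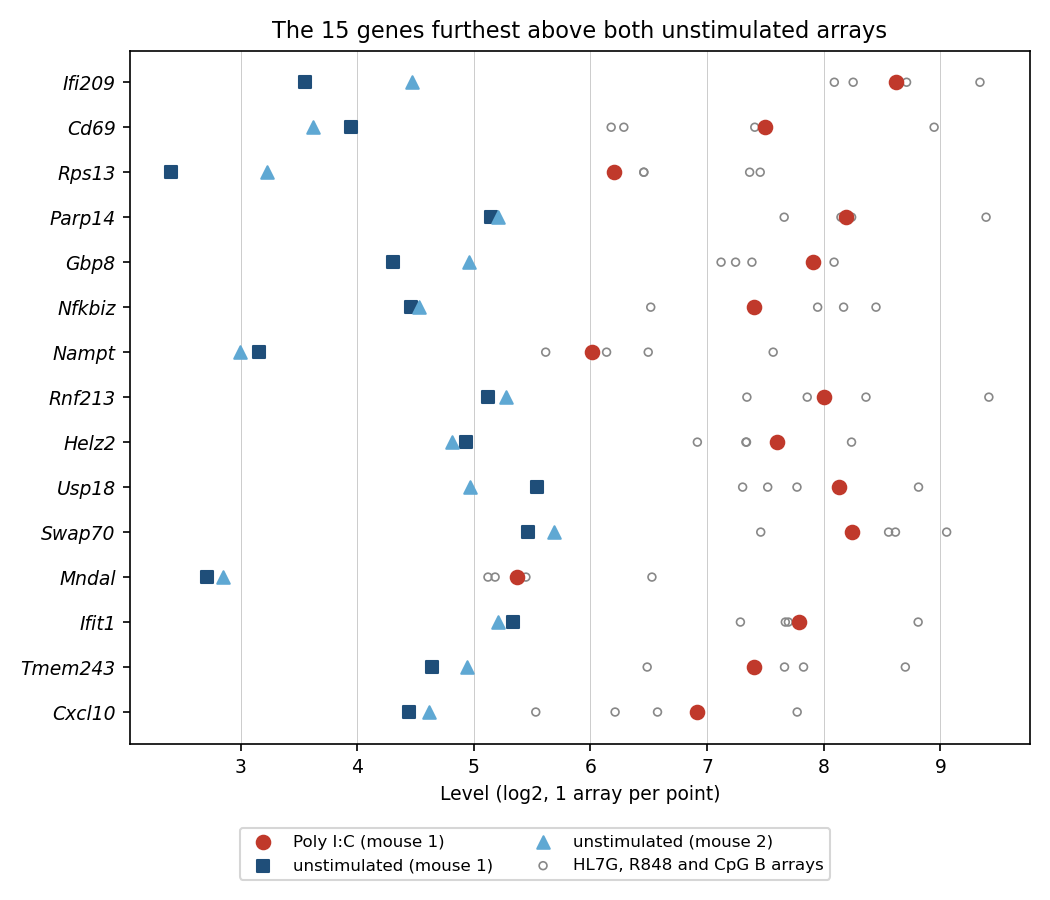
Log2 levels of the 15 genes furthest above both unstimulated arrays, 1 point per array. The genes were chosen to have the red Poly I:C point to the right of the dark and light blue unstimulated points. It lies within or near the range of the 4 open points of the other stimulated arrays.

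Among the sensors of nucleic acids, the cytosolic RNA helicases were above both unstimulated arrays and TLR3 was near the floor. Of 19 sensors measured (Oas1a had no probe set of its own), 10 were at least 2-fold above both, 52.6% against 1.97% of all genes measured. The median difference of the 19 was 1.05 against mouse 1 and 1.08 against mouse 2, against -0.08 and -0.035 over all genes measured. After a loess normalization, 6 of the 14 tested sensors were at least 2-fold above both (42.9%, against 2.05% of genes tested). Ifih1 (MDA5), which binds long double-stranded RNA, read 6.16 with Poly I:C, against 3.77 and 3.90 unstimulated, 5.02-fold. Ddx58 (RIG-I), which binds short RNA with a 5′ triphosphate, read 6.80 with Poly I:C, against 4.57 and 4.72 in unstimulated cells, 4.44-fold. Their differences were 2.33 ± 0.58 and 2.15 ± 0.57 (SE), each with an adjusted p of 0.429 in limma. Dhx58 (LGP2), the regulatory helicase of the same family, read 5.65 on the Poly I:C array and 4.60 and 4.45 on the unstimulated arrays. Eif2ak2 (PKR), the kinase that halts translation on double-stranded RNA, read 4.89 with Poly I:C, against 3.47 and 3.34 unstimulated. All 4 stood at least 2-fold above both unstimulated arrays.

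The OAS proteins bind double-stranded RNA and make a second messenger from ATP. Oas2 read 6.24 with Poly I:C, against 5.09 and 4.61 in unstimulated cells. Oas1b read 5.83 on the Poly I:C array and 4.63 and 4.57 on the unstimulated arrays. Oasl1 and Oasl2, the OAS-like members, also stood above, Oasl1 at 6.52 with Poly I:C, against 5.13 and 4.61 unstimulated. Oasl2 read 5.77 with Poly I:C, against 4.16 and 4.63 in unstimulated cells. All 4 were at least 2-fold above both, and Oas3, at 6.35 on the Poly I:C array and 5.43 and 5.35 on the unstimulated arrays, was just under the limit. Oas1c and Oas1g stayed under a level of 5 on all 7 arrays. Zbp1, a sensor of Z-form nucleic acid that can start necroptosis, read 7.71 with Poly I:C, against 5.82 and 5.13 unstimulated, the second largest difference in this list at 2.23. Adar, which edits adenosines in double-stranded RNA, read 6.74 with Poly I:C, against 5.50 and 5.66 in unstimulated cells. Tlr3 read 3.63 on the Poly I:C array and 3.54 and 3.53 on the unstimulated arrays and was under 5 on all 7 arrays, so at this brightness no difference could be read. Tlr7, the receptor for single-stranded RNA, read 4.17 with Poly I:C, against 3.77 and 3.51 unstimulated, and Tlr9, the receptor for CpG DNA, read 6.03 with Poly I:C, against 5.57 and 5.30 in unstimulated cells. Both were above both unstimulated arrays by less than 1.

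The adaptors and kinases downstream of the sensors differed less. Of 21 measured, 1 was at least 2-fold above both (4.76%, near the 3.89% of all genes tested), and the medians were 0.63 against mouse 1 and 0.43 against mouse 2. That gene was Trim25, the ubiquitin ligase that acts in RIG-I signalling, which read 6.55 on the Poly I:C array and 4.63 and 4.65 on the unstimulated arrays. Ticam1 (TRIF), the adaptor of TLR3, read 4.91 with Poly I:C, against 5.67 and 5.04 unstimulated, and Mavs, the adaptor of both RNA helicases, read 4.87 with Poly I:C, against 4.90 and 5.01 in unstimulated cells. Both were lower than each unstimulated array by less than 1. Myd88, the adaptor of TLR7 and TLR9, read 5.71 on the Poly I:C array and 4.77 and 4.78 on the unstimulated arrays. Irf3 read 5.28 with Poly I:C, against 4.65 and 4.83 unstimulated. Tbk1 read 5.37 with Poly I:C, against 4.42 and 4.77 in unstimulated cells. Ikbke, which encodes IKKε, read 6.34 on the Poly I:C array and 5.36 and 5.64 on the unstimulated arrays. These 4 were above both by less than 1. Unc93b1, which carries the nucleic acid TLRs to endosomes, read 5.75 with Poly I:C, against 4.56 and 5.06 unstimulated.

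Few interferon genes were above both unstimulated arrays, whereas most factors that carry interferon signals were. Of 18 type I and III interferon genes measured, 0 were at least 2-fold above both, against 1.97% of all genes measured. Under a level of 5 on all arrays stayed 10, as did 11061 of 22180 genes measured. Higher than both were 3 and lower than both 11, while over all genes measured 29.8% were higher and 43.1% lower. Ifnb1, the first interferon made after RNA sensing in many cells, read 3.25 with Poly I:C, against 3.32 and 3.11 in unstimulated cells. Ifna4, an early alpha interferon, read 5.73 on the Poly I:C array and 6.26 and 5.95 on the unstimulated arrays. Ifnl3, a lambda interferon, read 6.32 with Poly I:C, against 6.94 and 6.50 unstimulated. None of these 3 stood above both unstimulated values. The medians of the list were -0.11 and -0.16. Mouse alpha interferon genes are near-identical copies, so probe sets of single members can pick up others.

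Of 14 interferon receptor, STAT and IRF genes measured, 6 were at least 2-fold above both (42.9%, against 3.89% of genes tested). After loess 4 were (28.6%, against 2.05% of genes tested). Higher than both were 13 of the 14, against 4558 of 11119 genes tested. Irf5 had no probe set of its own. Stat2 read 7.10 with Poly I:C, against 4.90 and 4.70 in unstimulated cells, 4.93-fold, and Irf8, a factor of monocyte and dendritic cell identity, read 7.59 on the Poly I:C array and 5.44 and 5.42 on the unstimulated arrays, 4.48-fold. Irf7, which amplifies alpha interferon expression, read 6.85 with Poly I:C, against 5.16 and 5.37 unstimulated. Its difference of 1.59 ± 0.79 (SE) had an adjusted p of 0.593 in limma. Irf4, a factor of lymphocyte activation, read 6.09 with Poly I:C, against 4.52 and 4.38 in unstimulated cells. Stat3, the factor of IL-6 signals, read 6.48 on the Poly I:C array and 5.16 and 5.16 on the unstimulated arrays. Irf1, which drives antigen presentation genes, read 6.19 with Poly I:C, against 4.91 and 5.07 unstimulated. The unstimulated arrays lay up to 0.21 apart in these 6 genes. Irf9, a DNA-binding partner of STAT2, read 5.66 with Poly I:C, against 4.69 and 4.52 in unstimulated cells, past 2-fold against mouse 2 and just under it against mouse 1. The receptor chains were nearer to the unstimulated arrays: Ifnar1 read 5.04 on the Poly I:C array and 4.76 and 5.29 on the unstimulated arrays, inside the unstimulated range, and Ifnar2 read 6.14 with Poly I:C, against 5.97 and 5.21 unstimulated.

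Most antiviral effectors were above both unstimulated arrays. Of 60 effector genes measured, 34 were at least 2-fold above both (56.7%, against 1.97% of all genes measured). Higher than both were 57 and lower than both 3, against 29.8% and 43.1% of all genes measured. The medians were 1.43 against mouse 1 and 1.38 against mouse 2. After a loess normalization of the tested genes, 27 of 59 effectors (45.8%) and 228 of 11119 genes (2.05%) were at least 2-fold above both. Ifit1, which binds viral RNA that lacks host cap methylation, read 7.79 with Poly I:C, against 5.33 and 5.20 in unstimulated cells, 5.74-fold, with a difference of 2.52 ± 0.45 (SE, adjusted p 0.429 in limma). Mx1, a dynamin-like GTPase against viruses, read 5.92 on the Poly I:C array and 3.94 and 3.44 on the unstimulated arrays. Its relative Mx2 read 6.37 with Poly I:C, against 4.29 and 3.99 unstimulated. Isg15, a ubiquitin-like modifier, read 5.73 with Poly I:C, against 4.28 and 3.58 in unstimulated cells, 3.47-fold. Rsad2 (viperin), which makes a chain-terminating nucleotide, read 6.14 on the Poly I:C array and 4.93 and 4.80 on the unstimulated arrays. In each of these the single Poly I:C value lay beyond both unstimulated values by more than those values lay from each other.

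Samhd1, which depletes the nucleotides that retroviruses need, read 8.08 with Poly I:C, against 4.92 and 5.92 unstimulated, and Daxx, a chaperone of nuclear bodies, read 7.33 with Poly I:C, against 4.48 and 5.18 in unstimulated cells. Epsti1, an interferon-induced gene, read 7.19 on the Poly I:C array and 4.98 and 4.92 on the unstimulated arrays and had the smallest adjusted p of the effectors other than Ifi209, 0.383 in limma. Other effectors stood nearer to the unstimulated arrays or below them. Ifit3, a partner of Ifit1, read 6.37 with Poly I:C, against 6.21 and 6.32 unstimulated, above them by 0.16 and 0.051, while its mean difference after loess was -0.42. Its copy Ifit3b read 4.07 with Poly I:C, against 4.64 and 4.82 in unstimulated cells, lower than both. Phf11d and Gbp6 were also lower than both, but hardly so. Phf11d differed by -0.034 and -0.044, and Gbp6, under 5 on all arrays, by -0.028 and -0.11. Bst2 (tetherin), which holds virions at the membrane, read 5.43 on the Poly I:C array and 4.47 and 3.92 on the unstimulated arrays. Ifitm3, which blocks fusion of viruses, read 5.24 with Poly I:C, against 4.66 and 4.43 unstimulated, above both by less than 1. Ifit3 and Ifit3b are near-identical copies, and their single values are uncertain in that respect. Some members of the Schlafen, GBP and PYHIN families are also similar in sequence, and their values may be uncertain too.

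The ISRE core was looked for in the RefSeq promoter windows (250 bases before to 50 after each gene's start, GRCm38.p6) because it is the element on which interferon acts and is independent of the array values. The letters searched on both strands were GAAA, any 2 bases and GAAA again. Windows were matched by symbol for 16990 of 22180 genes. At least 1 match was found in 24 of 48 effector genes with a window (50%), in 36 of 319 genes at least 2-fold above both unstimulated arrays (11.3%), and in 657 of the 16990 measured genes with a window (3.87%). Without the effectors, 26 of 294 genes at least 2-fold above both held it (8.84%). Among the effectors, it was found in 10 of 25 at least 2-fold above both (40%) and in 14 of 23 that were not (60.9%). The motif was common in the effector list but in these counts not more common among its members with the larger differences. Stretches around the matches are printed for 5 genes at least 2-fold above both arrays and for Ifit3 and Ifna4, which were not, with the matches in capitals and the gene's own strand 5′ to 3′. A match is a description of these letters and shows no binding.
Ifit1 (chr19:34640760-34640838, + strand): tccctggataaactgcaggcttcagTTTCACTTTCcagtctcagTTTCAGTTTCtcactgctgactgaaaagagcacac
Isg15 (chr4:156200850-156200921, - strand): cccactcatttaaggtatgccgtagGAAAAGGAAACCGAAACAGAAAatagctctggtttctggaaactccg
Mndal (chr1:173879978-173880037, - strand): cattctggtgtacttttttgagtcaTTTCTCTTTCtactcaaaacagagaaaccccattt
Stat2 (chr10:128270251-128270310, + strand): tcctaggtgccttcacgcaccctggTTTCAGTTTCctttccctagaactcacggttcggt
Cxcl10 (chr5:92349068-92349127, - strand): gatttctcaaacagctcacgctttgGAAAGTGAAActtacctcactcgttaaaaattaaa
Ifit3 (chr19:34583348-34583441, + strand): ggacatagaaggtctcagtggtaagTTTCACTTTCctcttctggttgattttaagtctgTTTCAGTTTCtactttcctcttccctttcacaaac
Ifna4 (chr4:88841583-88841732, + strand): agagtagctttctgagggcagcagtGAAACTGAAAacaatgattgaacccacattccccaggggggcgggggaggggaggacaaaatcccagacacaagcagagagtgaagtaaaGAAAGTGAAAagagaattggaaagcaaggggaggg
The matches begin 104 and 85 bases before the start of Ifit1, and 156 and 122 bases before that of Ifit3. Both genes thus hold 2 matches, with differences of 2.52 for Ifit1 and 0.11 for Ifit3. Isg15 holds 3 overlapping matches. Ifna4 holds 2 matches, with a difference of -0.38. A match was found in 10 of 17 interferon genes with a window (58.8%), 6 of 14 sensors (42.9%, Ifih1, Ddx58 and Eif2ak2 among them), 1 of 12 chemokines (Cxcl10) and 0 of 14 cytokines. The NF-kB letters, GGGA followed by any base and TTTCC, searched the same way, were found in 85 of 16990 genes (0.5%), 3 of 12 chemokines (25%), 2 of 14 cytokines (14.3%) and 4 of 319 genes at least 2-fold above both (1.25%).

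**Figure D3:**
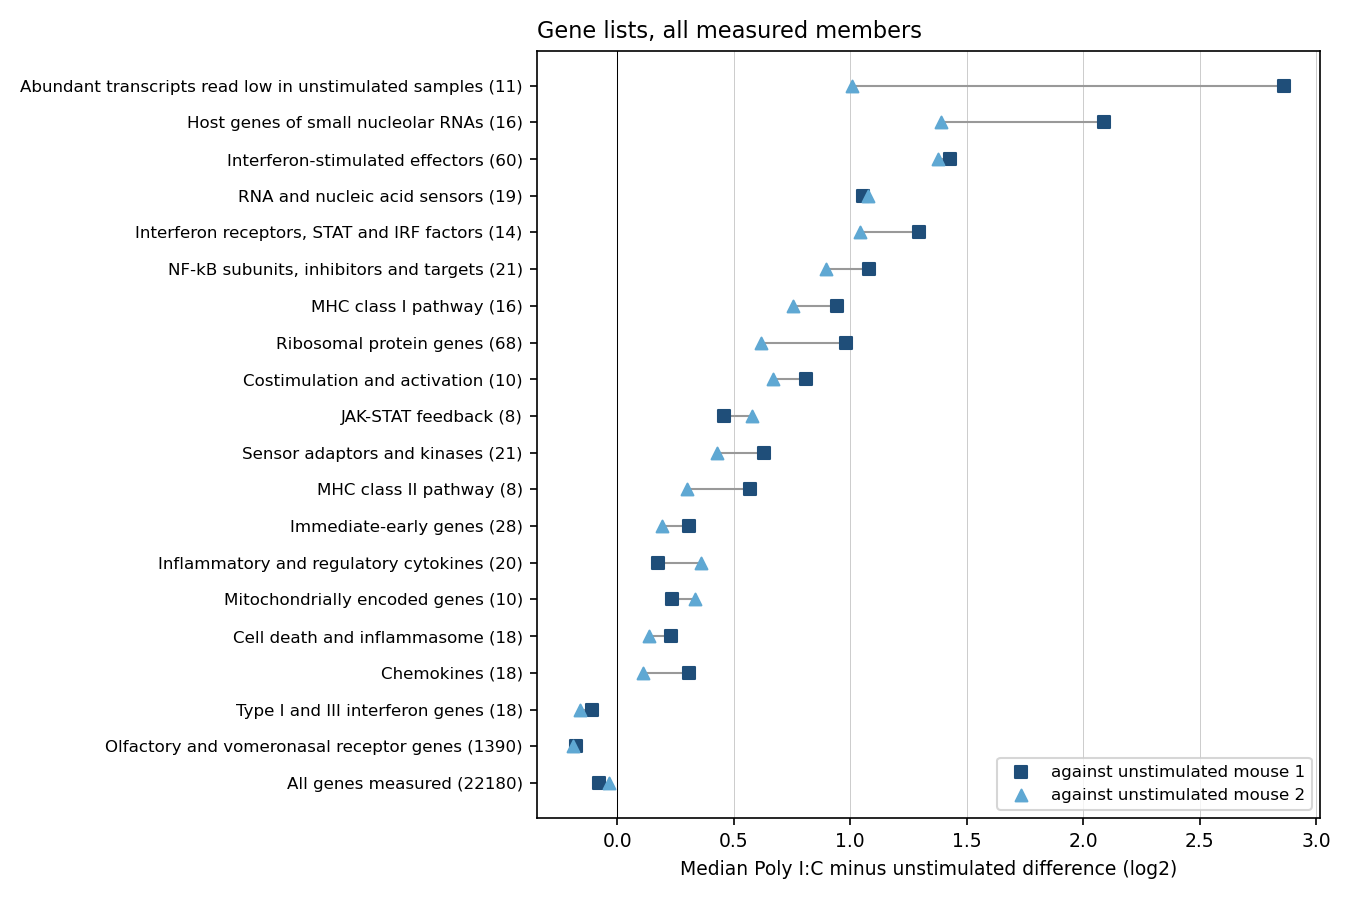
Median log2 difference of each gene list, over all measured members (number in parentheses), against unstimulated mouse 1 (dark square) and mouse 2 (light triangle). Effector and sensor medians are nearly the same against both arrays, while abundant transcripts read 2.86 against mouse 1 and 1.01 against mouse 2.

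The share of genes at least 2-fold above both was larger in brighter genes up to a level of 8, and the share among effectors was larger than that among all genes in each range of level. Among genes with a mean level under 5, 4 of 13 effectors and 33 of 14873 genes (0.222%) were at least 2-fold above both. Between 5 and 6 these were 8 of 22 effectors and 150 of 5970 genes (2.51%), between 6 and 7 they were 12 of 14 and 158 of 1018 (15.5%), and between 7 and 8 they were 9 of 10 and 68 of 175 (38.9%). The median difference of all genes between 7 and 8 was 1.14 against mouse 1 and 0.73 against mouse 2, and that of the effectors 2.52 and 2.15. Above 8 there was only 1 effector, which was at least 2-fold above both, as were 27 of 144 genes (18.8%). The median of these 144 genes was 2.03 against mouse 1 and 0.44 against mouse 2. The mean level covers the 7 arrays, 5 of them stimulated, so genes that were bright with stimulation fall in brighter ranges by construction. The part of brightness in the single differences was not tested.

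**Figure D4:**
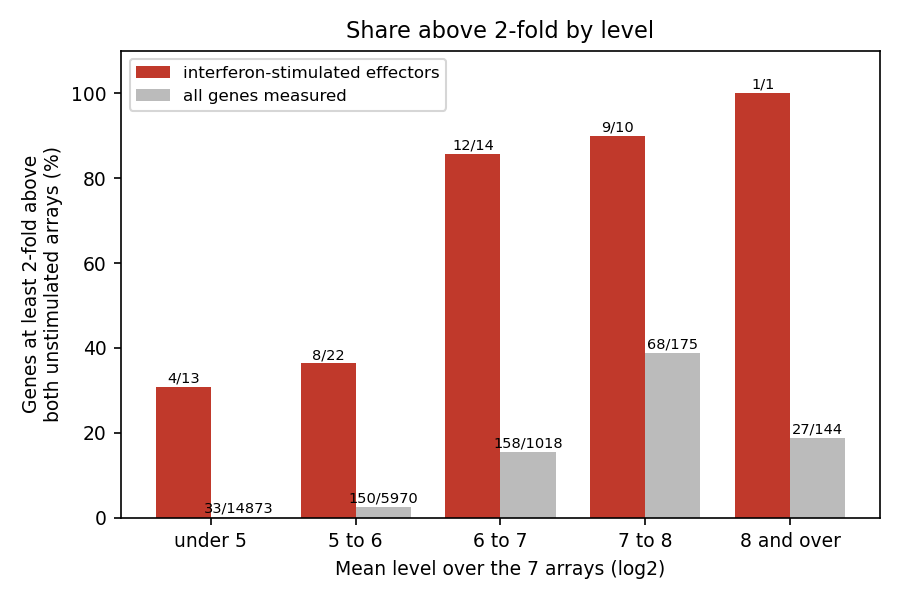
Percent of genes at least 2-fold above both unstimulated arrays by mean log2 level over the 7 arrays, for interferon-stimulated effectors (red) and all genes measured (grey), with counts over the bars. In the 6 to 7 bin 12 of 14 effectors and 158 of 1018 genes passed 2-fold.

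Of the inflammatory cytokines, Tnf was the furthest above both unstimulated arrays, and Il1b was far above mouse 1 alone. Tnf, the early inflammatory cytokine of monocytes, read 7.53 with Poly I:C, against 4.97 and 5.99 in unstimulated cells, 4.15-fold, with a difference of 2.05 ± 0.43 (SE, adjusted p 0.429 in limma). It was the 1 of 20 cytokines at least 2-fold above both (5.0%, against 1.97% of all genes measured). Il1b, which the inflammasome processes, read 7.14 on the Poly I:C array and 5.02 and 6.50 on the unstimulated arrays, so that the difference was 2.12 against mouse 1 and 0.64 against mouse 2. Il6, which drives the acute-phase response, read 4.17 with Poly I:C, against 3.16 and 3.26 unstimulated, and Il1a, an alarm cytokine, read 5.09 with Poly I:C, against 4.13 and 4.16 in unstimulated cells. Both were above both arrays by about 1. Il6 reached a level of 5 only with HL7G in mouse 1 (5.03). Its difference was 0.97 as deposited, 0.85 after loess and 0.39 after quantile normalization. Il12b, the shared subunit of IL-12 and IL-23, read 5.26 on the Poly I:C array and 4.97 and 4.94 on the unstimulated arrays, and Il12a read 5.32 with Poly I:C, against 4.78 and 4.73 unstimulated. Il10, Il15, Il18, Il23a, Csf1, Csf2, Csf3 and Tnfsf10 stayed under 5 on all arrays. The medians of the list were 0.18 and 0.36.

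Of 18 chemokines, 4 were at least 2-fold above both (22.2%, against 1.97% of all genes measured). Under a level of 5 stayed 9, as did 11061 of 22180 genes measured. After loess 1 of the 9 tested was at least 2-fold above both (11.1%, against 2.05% of genes tested). The differences of Ccl4 and Ccl5 after loess were 0.85 and 0.37, against 1.69 and 1.49 before it. Cxcl10, the CXCR3 ligand that draws T cells and NK cells, read 6.91 with Poly I:C, against 4.44 and 4.61 in unstimulated cells, 5.22-fold, with a difference of 2.38 ± 0.58 (SE, adjusted p 0.429 in limma). Ccl3, a ligand of CCR1, read 7.81 on the Poly I:C array and 4.74 and 6.41 on the unstimulated arrays. Ccl4, a closely related chemokine, read 7.81 with Poly I:C, against 6.10 and 6.15 unstimulated. Ccl5, which draws T cells, read 7.98 with Poly I:C, against 6.28 and 6.71 in unstimulated cells. The unstimulated arrays differed by 1.67 for Ccl3 and by 0.041 for Ccl4. Ccl2, which draws monocytes through CCR2, read 5.34 on the Poly I:C array and 5.03 and 5.34 on the unstimulated arrays, level with mouse 2. Cxcl2, a neutrophil attractant, read 5.18 with Poly I:C, against 4.63 and 5.27 unstimulated, inside the unstimulated range, and Cxcl9 and Cxcl11, the other CXCR3 ligands, stayed under 5.

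Of 21 NF-kB subunits, inhibitors and targets, 8 were at least 2-fold above both (38.1%, against 3.89% of genes tested), with medians of 1.08 and 0.90. After loess 3 of the 21 were (14.3%, against 2.05% of genes tested), and the median difference was 0.64, against 1.06 before it. Besides Nfkbiz, Rel, the c-Rel subunit, read 6.72 with Poly I:C, against 4.50 and 5.07 in unstimulated cells. Nfkb2, which encodes the p100 precursor, read 7.02 on the Poly I:C array and 5.26 and 5.47 on the unstimulated arrays. Nfkbie, which encodes IκBε, read 6.26 with Poly I:C, against 4.72 and 4.62 unstimulated. Tnfaip3 (A20), the ubiquitin editor that ends the signal, read 6.98 with Poly I:C, against 5.60 and 5.72 in unstimulated cells. Nfkbia, the main inhibitor IκBα, read 7.95 on the Poly I:C array and 6.35 and 6.97 on the unstimulated arrays, under 2-fold against mouse 2. Ptgs2, Nod2, Ier3 and Nfkbib were not above both. In the 28 immediate-early genes 4 were at least 2-fold above both (14.3%, against 1.97% of all genes measured). Those were Myc, Junb, Jund and Zfp36. After loess 0 of the 27 tested were at least 2-fold above both, against 2.05% of genes tested. Differences after loess were 0.86 for Myc and 0.60 for Junb. Myc, a transcription factor of cell growth, read 7.95 with Poly I:C, against 5.97 and 6.02 unstimulated. Zfp36, the decay factor of cytokine mRNA, read 6.47 with Poly I:C, against 5.21 and 5.30 in unstimulated cells. Junb, an AP-1 subunit, read 7.16 on the Poly I:C array and 5.84 and 5.81 on the unstimulated arrays. Fos, Fosb, Dusp1 and the Egr genes differed by less than 1 from each array. In the 8 genes of JAK-STAT feedback 1 was at least 2-fold above both (12.5%, against 3.89% of genes tested). After loess 0 of 8 were, against 2.05% of genes tested. Counts of 1 and 0 among 8 genes are too small to set apart from these shares. Pim1, a kinase, read 8.32 with Poly I:C, against 6.46 and 6.70 unstimulated. Socs1, an inhibitor of JAK kinases, read 6.03 with Poly I:C, against 5.47 and 5.27 in unstimulated cells, and Socs3 read 6.11 on the Poly I:C array and 5.37 and 5.57 on the unstimulated arrays.

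Genes of activation and antigen presentation were above both arrays in part. Of 10 costimulation and activation genes, 5 were at least 2-fold above both (50%, against 1.97% of all genes measured). Besides Cd69 those were Cd40, Cd83, Slamf7 and Cd274. After loess 2 of the 8 tested were at least 2-fold above both (25%, against 2.05% of genes tested). The differences after loess were 0.62 for Cd83 and 0.80 for Cd274. Cd40, the receptor for T-cell help, read 6.86 with Poly I:C, against 5.32 and 5.33 unstimulated. Cd83, a marker of mature antigen-presenting cells, read 7.44 with Poly I:C, against 6.03 and 5.94 in unstimulated cells. Cd274 (PD-L1), the inhibitory ligand, read 5.93 on the Poly I:C array and 4.88 and 4.88 on the unstimulated arrays. Cd86, a ligand of CD28, was nearer, at 4.68 with Poly I:C, against 4.11 and 4.51 unstimulated. In the MHC class I pathway 3 of 16 were at least 2-fold above both (18.8%, against 3.89% of genes tested), B2m, Tapbp and Calr. B2m, the light chain, read 9.49 with Poly I:C, against 5.74 and 7.90 in unstimulated cells. H2-K1, a heavy chain, read 8.30 on the Poly I:C array and 6.16 and 7.68 on the unstimulated arrays. Tap1, the peptide transporter, read 6.68 with Poly I:C, against 5.83 and 5.84 unstimulated. The unstimulated arrays lay 2.16 apart for B2m and 1.52 apart for H2-K1. After loess the median of the list was 0.31, against 0.90 before it. After loess 0 of 16 were at least 2-fold above both, against 2.05% of genes tested. In the MHC class II pathway 2 of 8 were at least 2-fold above both (25%, against 1.97% of all genes measured). H2-Ab1 read 7.65 with Poly I:C, against 5.16 and 5.93 in unstimulated cells. H2-Aa read 6.31 on the Poly I:C array and 4.20 and 5.11 on the unstimulated arrays. Ciita, the master factor of class II genes, read 5.89 with Poly I:C, against 5.91 and 5.95 unstimulated.

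Of 18 genes of cell death and the inflammasome, 2 were at least 2-fold above both (11.1%, against 1.97% of all genes measured). Casp8, the initiator of apoptosis and brake on necroptosis, read 6.05 with Poly I:C, against 4.28 and 4.54 in unstimulated cells. Casp4, the non-canonical inflammasome caspase, read 4.87 on the Poly I:C array and 3.39 and 3.81 on the unstimulated arrays. Gsdmd, the pore former of pyroptosis, read 5.60 with Poly I:C, against 4.95 and 5.08 unstimulated. Ripk3, a kinase of necroptosis, was lower than both, at 4.70 with Poly I:C, against 5.28 and 5.33 in unstimulated cells. Nlrp3 and Casp1 stayed under 5.

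Many transcripts of the translation machinery and a chosen list of abundant transcripts were also above the unstimulated arrays, and by unequal amounts. Gapdh, by its brightest probe set as given above, was lower than both. Of 16 host genes of small nucleolar RNAs, 9 were at least 2-fold above both (56.2%), against 1.97% of all genes measured. Their medians were 2.09 against mouse 1 and 1.39 against mouse 2. After loess 7 of the 16 were at least 2-fold above both (43.8%, against 2.05% of genes tested), and the median was 0.96. Like the other lists, this one was chosen with earlier results of these data known, so its counts are no independent evidence. Rabggtb, a subunit of the Rab prenylation enzyme whose gene hosts small nucleolar RNAs, read 8.14 on the Poly I:C array and 2.42 and 6.40 on the unstimulated arrays, a difference of 5.71 against mouse 1 and 1.74 against mouse 2. Ncl, nucleolin, read 7.90 with Poly I:C, against 4.46 and 5.62 unstimulated. Rps20, a ribosomal protein, read 7.09 with Poly I:C, against 3.11 and 4.91 in unstimulated cells. Of 68 ribosomal protein genes, 20 were at least 2-fold above both (29.4%, against 1.97% of all genes measured), with medians of 0.98 and 0.62. After loess 3 of the 59 tested were at least 2-fold above both (5.08%, against 2.05% of genes tested). The median of the 59 was then 0.23. A list of abundant transcripts, chosen with their low reading in unstimulated samples known, had 6 of 11 at least 2-fold above both (54.5%, against 3.89% of genes tested). Its counts and its medians of 2.86 and 1.01 are no independent evidence. After loess 0 of the 11 were at least 2-fold above both, against 2.05% of genes tested. Fth1, the ferritin heavy chain, read 9.87 on the Poly I:C array and 6.56 and 9.65 on the unstimulated arrays, so that almost the whole gap is with mouse 1. The 10 mitochondrially encoded genes, with a median level of 11.45 on the Poly I:C array, had medians of 0.24 and 0.33, and a median of -1.29 after loess. At least 2-fold from both were 0 of the 10, against 3.89% of genes tested upward and 0.054% downward.

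Few genes were at least 2-fold lower as deposited, although after loess there were 75 and after quantile normalization 54. Of the 6 genes at least 2-fold below both, 2 are named genes outside predicted loci and vomeronasal receptors. Psg21, a pregnancy-specific glycoprotein gene, read 3.93 with Poly I:C, against 5.01 and 4.98 unstimulated, and Unc93a2 read 5.78 with Poly I:C, against 7.04 and 6.81 in unstimulated cells. Both belong to families of similar copies. The differences were -1.06 ± 0.27 and -1.14 ± 0.29 (SE), each with an adjusted p of 0.429 in limma. Over all 22180 genes, 6615 (29.8%) were higher and 9566 (43.1%) lower than both unstimulated arrays. The 1390 olfactory and vomeronasal receptor genes, which monocytes hardly use and which were grouped after the data were seen, had a median level of 3.39 on the Poly I:C array, against 3.62 and 3.60 on the unstimulated arrays of mouse 1 and mouse 2, and 807 of them were lower than both.

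Many markers of the labelled cell type were faint, about as often as genes in general. Of 18 monocyte markers measured, 10 stayed under 5 on all 7 arrays, as did 11061 of 22180 genes measured. Among the 10 were Ly6c2, Ccr2, Itgam, Fcgr1 and Adgre1. Cx3cr1, the fractalkine receptor of patrolling monocytes, read 6.04 on the Poly I:C array and 6.05 and 6.50 on the unstimulated arrays. Lyz2, lysozyme, read 5.60 with Poly I:C, against 4.53 and 5.11 unstimulated, and Csf1r, the receptor for macrophage colony-stimulating factor, read 5.04 with Poly I:C, against 4.86 and 5.36 in unstimulated cells. The median level of the 18 was 4.65 with Poly I:C, against 4.71 and 4.73 in unstimulated mouse 1 and mouse 2. Over all genes measured the median level was 4.62 with Poly I:C, against 4.64 and 4.63. B-cell genes were brighter with Poly I:C than in unstimulated cells: 9 of 10 were higher than both, against 29.8% of all genes measured. Of the genes tested, which leave out the dimmest, 4558 of 11119 were higher than both. The median level of the B-cell genes was 5.72 with Poly I:C, against 4.87 and 4.98 unstimulated. It was 5.31 with CpG B, 5.95 with R848, and 6.38 and 6.12 with HL7G in mouse 1 and mouse 2. Cd79a, a chain of the B-cell receptor, read 6.26 on the Poly I:C array and 4.99 and 5.60 on the unstimulated arrays. Fcer2a (CD23), the 1 of the 10 at least 2-fold above both (10%, against 1.97% of all genes measured), read 6.24 with Poly I:C, against 4.76 and 4.52 unstimulated. Of 10 T-cell genes, all of them tested, 7 were higher than both, against 4558 of 11119 genes tested. Their median level was 5.49 with Poly I:C, against 4.99 and 5.22. That median was 5.48 with CpG B, 5.51 with R848, and 6.59 and 6.04 with HL7G in mouse 1 and mouse 2. Cd3d, a chain of the T-cell receptor complex, read 6.28 with Poly I:C, against 4.86 and 5.54 in unstimulated cells, and Il7r read 6.38 on the Poly I:C array and 4.35 and 4.59 on the unstimulated arrays. Other markers measured were 9 of NK cells, 12 of neutrophils, 4 of erythroid cells, 5 of platelets, and 7 each of plasmacytoid and conventional dendritic cells. A further 10 were of red pulp macrophages and 8 of endothelium and stroma. In each of these lists 0 were at least 2-fold above both, against 1.97% of all genes measured. With lists this short, 0 is near that share. The part of B cells and T cells in the results above was not tested.

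Poly I:C was then set against the mean of R848 and CpG B, all from mouse 1. The differences use no unstimulated array, but their errors come from the same fit and so from the unstimulated and HL7G pairs. No gene passed (0 of 11119, 0.0%, limma, lowest adjusted p of 1.0), and 187 (1.68%) had an unadjusted p under 0.05, against 113 when 1 unstimulated array was left out and 498 when 1 HL7G array was. Median differences were 0.039 for sensors, 0.0007 for effectors, 0.15 for cytokines and 0.47 for chemokines, against -0.051 over all genes tested. Tnf read 7.53 with Poly I:C, against 6.56 with R848 and 6.06 with CpG B, a difference of 1.22 ± 0.43 (SE). Chil3, a chitinase-like protein of macrophages, read 5.52 with Poly I:C, against 4.40 with R848 and 4.10 with CpG B. Both were higher with Poly I:C than with either of the others, which follows largely from their choice by the size of the difference. Xlr, Dcpp3, Btbd35f5 and Btbd35f1 made up the rest of the 6 furthest above, with differences between 1.07 and 1.22, and the Btbd35f genes are near-identical copies. Cxcl10, at 6.91 with Poly I:C, against 6.57 with R848 and 5.53 with CpG B, differed by 0.86 ± 0.58 (SE).

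Lower with Poly I:C than with R848 and CpG B was Irgm1, an interferon-induced GTPase of autophagy, which read 4.92 with Poly I:C, against 6.43 with R848 and 6.01 with CpG B, a difference of -1.30 ± 0.64 (SE). Ddx3x, a helicase that binds TBK1 and IKKε, read 4.20 with Poly I:C, against 5.95 with R848 and 5.03 with CpG B. Cse1l, the export factor of importin alpha, read 4.30 with Poly I:C, against 5.87 with R848 and 5.33 with CpG B. The other 3 were Hspa4, a heat-shock protein, Wwp2, a ubiquitin ligase, and Tnpo2, a nuclear import receptor, with differences of -1.23, -1.20 and -1.19. In these 6 the Poly I:C value was below both others, which likewise follows largely from how they were chosen. For Ddx58 the difference was 0.44 ± 0.57 (SE), for Ifih1 0.34 ± 0.58 and for Ifit1 0.31 ± 0.45. Their unadjusted p in limma lay between 0.465 and 0.578, which does not show that the agonists act alike.

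**Figure D5:**
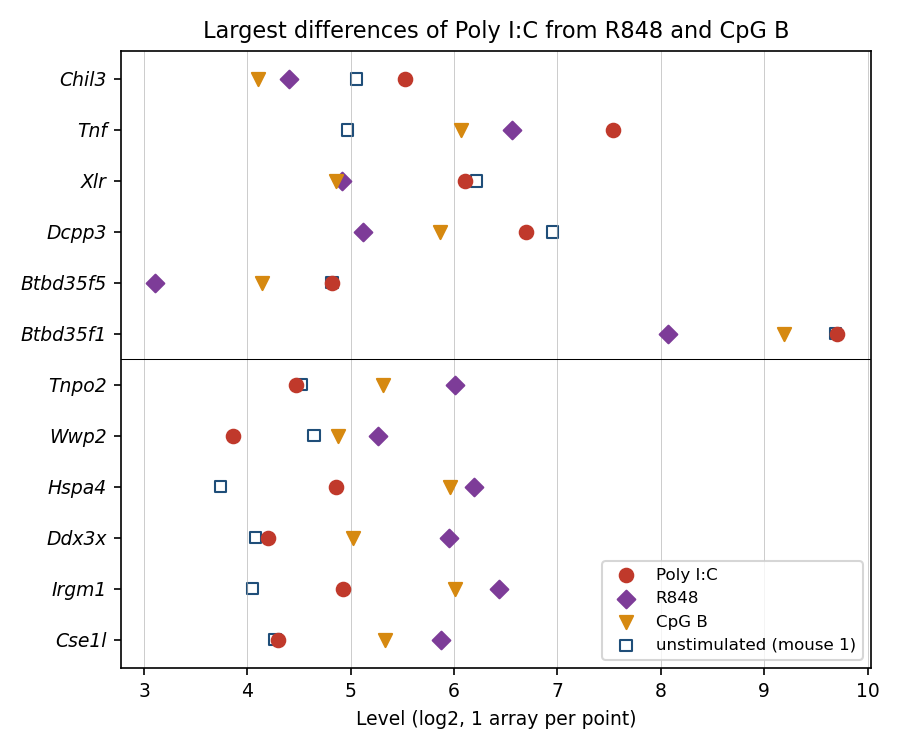
Log2 levels of the 6 genes furthest above (top) and furthest below (bottom) with Poly I:C, for Poly I:C, R848, CpG B and unstimulated cells, all of mouse 1. The Poly I:C point is the highest of the 3 agonists in the top 6 and the lowest in the bottom 6. The genes were chosen by the size of this difference, so these positions follow largely from the choice.

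Procr, which encodes EPCR, read 4.96 with Poly I:C, against 5.29 and 5.18 unstimulated, and F3, tissue factor, which starts coagulation, read 4.97 with Poly I:C, against 4.92 and 4.86 in unstimulated cells. Neither differed from either unstimulated array by as much as 1.5-fold.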

How the data were processed

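The authors deposited log2 levels per probe set for 7 arrays. RMA, Affymetrix Expression Console and Transcriptome Analysis Console are named in the submitters' processing notes, without versions or parameters, and no genome build is named there. RMA aligns the distributions of all arrays, which assumes similar total RNA composition. Of 41345 probe sets, 23521 carried 1 symbol, 1814 several and 16010 were not listed. The probe set brightest on average stood for each of 22180 genes. Genes that reached a level of 5 on any array, 11119 in all, entered a 2-sided limma test (limma 3.58.1, R 4.3.3) in 1 fit of 5 groups and 7 arrays (2 residual and 4.94 prior degrees of freedom), with Benjamini-Hochberg adjustment over all of them. Precision is limited by the number of arrays, and the errors rest on 2 mice. The fit was tested on simulated data.

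The members and gene lists were chosen with earlier results of these data known. Named were the 15 genes furthest above and up to 8 furthest below both unstimulated arrays, ranked by the smaller difference, the 6 largest direct differences each way, a set of genes of RNA sensing, and up to 6 members per other list, leaving out predicted loci, small RNAs and receptor genes. The labels number the mice, so arrays that share a number share an animal and are paired. Over tested genes, the unstimulated and HL7G differences between mice had r = -0.146, and the mouse was also entered as a block. Promoter windows come from RefSeq, GRCm38.p6. An IgG condition named in the labels' protocols was not analysed here.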

Additional observations from a re-analysis of the deposited data

Results flagged for a closer look

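Probe sets that carry no single gene symbol were outside the comparisons of the report, and some of them read higher with Poly I:C. Of 16010 probe sets not listed with a symbol, 371 (2.32%) were at least 2-fold above both unstimulated arrays and 163 (1.02%) at least 2-fold below both. Of 1814 probe sets with several symbols, 57 (3.14%) were at least 2-fold above both and 7 (0.386%) at least 2-fold below both. Over all 22180 genes with a symbol of their own these shares were 1.97% and 0.0676%. What these probe sets measure was not examined.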

How the results depend on the processing

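Poly I:C had 1 array, so no setting could leave it out, and every value rests on it. Against unstimulated cells, 0 genes passed limma's test in the fit of all 7 arrays, and likewise after median centring, after loess, with no filter on level, with a mean level of at least 6, with the mean of all probe sets, and with adjusted p and a 2-fold difference required together. Quantile normalization of the tested genes gave 11 genes, 10 of them higher, and a variance trend gave 2, Rps13 and Snord1b. The fit with the mouse as a replicate block gave 2 genes, and no other call changed under the block. Leaving out single replicates gave 0 to 198 genes: 0 without unstimulated mouse 1, 89 without unstimulated mouse 2, and 198 without either HL7G array. A fit of the 3 Poly I:C and unstimulated arrays also gave 198, of which 197 were higher. In the fits that drop an HL7G array or keep these 3 arrays, the spread comes from the unstimulated pair alone. Against R848 and CpG B, 0 genes passed in each setting run, with leave-one-out counts of 0 to 0.

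The number of genes at least 2-fold above both unstimulated arrays was 433, against 228 after loess and 253 with a mean level of at least 6. At 1.5-fold it was 1181 and at 3-fold 109, both chosen after seeing the data. The number below both was 6, against 3 after median centring, 75 after loess, 54 after quantile normalization, 15 with no filter, 2 with a mean level of at least 6, 145 at 1.5-fold and 1 at 3-fold. The share of upward genes among those at least 2-fold from both was 98.6% as deposited, 75.2% after loess and 86.7% after quantile normalization. Ccl2 differed by -0.0065 without unstimulated mouse 1, a reversed sign, and by up to 0.3028 without the other replicates in turn. These 2 values are its differences from unstimulated mouse 2 alone and from unstimulated mouse 1 alone. Otherwise the genes named for a comparison kept their sign within it in the settings run, with 571 values on the same side of the threshold and 89 that passed it. These counts leave out genes named for R848 and CpG B against unstimulated cells, where Xlr, Ddx3x and Btbd35f1 change sign with loess, quantile normalization or the block. Of list members described in the report, Ifit3, Ifnar1 and Nfkbib had opposite signs after loess (-0.42, -0.032 and -0.076). Of the list medians, 84 of 222 values in other settings moved by more than the SD between the unstimulated arrays. Dim genes, TLR3 and Ifnb1 among them, allow no difference to be read.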
